A study of Saccharomyces cerevisiae with 22 samples.

Results

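The peaks described here are those of tagged Sus1 that were called in all 6 lists, from 3 strains at 25 °C and 37 °C. The study also had 4 untagged samples, which have no list among these. Whether an untagged strain gives peaks at the same positions was not tested here. They were selected on the peak calls themselves: a peak of the wild-type (WT) list at 25 °C counted as shared when its interval overlapped by at least 1 bp a peak in each of the 5 other lists. This held for 1052 of 16887 WT 25 °C peaks, or 6.23% (Wilson 95% interval 5.87 to 6.60%), and the 6 lists held 106828 peaks in all. Being present in every list was thus the criterion and is not a result. Widths and enrichments of the shared peaks are given as descriptions.

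Sus1 binding was measured by ChIP-exo, in which an exonuclease trims the immunoprecipitated DNA close to the crosslinked protein. The lists are for the spt7 mutant at 37 °C and 25 °C, for spt8Δ at 37 °C and 25 °C, and for WT at 37 °C and 25 °C, and values are given below in that order of lists. All were Saccharomyces cerevisiae strains of the BY4741 background (ura3-Δ0, met15-Δ0, leu2-Δ0 and his3-Δ1) carrying MYC-tagged Sus1 (SUS1-MYC::HIS3). The mutants also carried spt8::KanMX4 or a KanMX4-marked spt7 allele. In the labels this allele is named spt7-deletion, but by the study's methods it encodes Spt7 cut short at the C terminus. Cells grew in rich medium at 25 °C, and the 37 °C samples received a shift of 15 min. Each condition had 1 deposited list, so that differences between lists have no replicate check, and the intervals below cover counting error only.

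Sus1 is a small subunit of the histone deubiquitinating module of SAGA, together with Ubp8, Sgf11 and Sgf73. SAGA is a coactivator of transcription by RNA polymerase II. Sus1 also belongs to TREX-2, a complex at the nuclear pore that functions in mRNA export. Spt8 and the C terminus of Spt7 separate SAGA from the related complex SLIK, and in both mutants the study considers SLIK but not SAGA to be present. tRNA genes, by contrast, are transcribed by RNA polymerase III. Its factor TFIIIC binds the A and B boxes inside the tRNA gene, and TFIIIB binds just upstream of the gene.

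The sequences of 4 shared peaks are shown because they stand for the main kinds of position described below. Each is the strongest of its kind among intervals of at most 300 bp. They are the peak near a tRNA gene (YNCJ0008W, a tRNA-Arg gene), the peak between divergent genes (PMD1/GLC7, beside the RNA polymerase III gene SNR52), a peak in a coding sequence (SSA1, after the wider peaks of PGK1 and GCN4) and a peak between tandem genes (VPS55/SSC1, a GT repeat, after the wider peak HXT3/SVF1). Each is the interval of the WT 25 °C peak on the plus strand, 5′ to 3′, from the RefSeq sequence of the R64 assembly, which is sacCer3. Capitals mark matches to the searched motifs, which in the first sequence are TATAAA on the minus strand, the B box core GGTTCNA and the Hsf1 motif GAANNTTC, and in the second TATAAA. A match is a description and not a proven site.
YNCJ0008W (chr10:233861-234044): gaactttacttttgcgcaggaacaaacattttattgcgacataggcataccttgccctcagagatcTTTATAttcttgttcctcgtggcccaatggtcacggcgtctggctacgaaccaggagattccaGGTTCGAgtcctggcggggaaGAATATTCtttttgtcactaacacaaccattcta
PMD1/GLC7 (chr5:431311-431498): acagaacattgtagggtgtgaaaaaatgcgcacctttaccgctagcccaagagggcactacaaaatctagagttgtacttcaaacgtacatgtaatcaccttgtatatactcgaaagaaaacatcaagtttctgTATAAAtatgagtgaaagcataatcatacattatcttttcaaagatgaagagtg
SSA1 (chr1:139533-139691): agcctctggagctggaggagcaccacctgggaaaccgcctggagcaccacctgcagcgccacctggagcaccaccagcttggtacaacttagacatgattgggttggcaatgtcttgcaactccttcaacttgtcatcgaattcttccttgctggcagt
VPS55/SSC1 (chr10:519221-519302): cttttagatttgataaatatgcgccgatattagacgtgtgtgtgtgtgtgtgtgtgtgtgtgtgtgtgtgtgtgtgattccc

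The shared peaks stood out by their positions near tRNA genes. A summit lay in a tRNA gene or within 200 bp of it for 211 of the 1052 shared peaks (20.1%, Wilson 95% interval 17.7 to 22.6%), against 120 of the 15835 other WT 25 °C peaks (0.758%, 0.634 to 0.905%) and 1.08% of the genome's bases. Thus 63.7% of the 331 WT 25 °C peaks near tRNA genes were shared. In contrast, 5.47% of the 13724 peaks in coding sequence were shared.

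Coding sequence held most of the shared peaks under the 1 bp rule. It remained with q under 1e-05 in every list (62.6%) but was lost under 3 other stricter rules, with a coding share of 20.6% among the 5000 strongest peaks of each list, 25.0% with a reciprocal overlap of 50% and 45.7% where the other summits had to lie in the interval. The tRNA share was then 72.4%, 67.2% and 46.0%. Under the 1 bp rule, 751 of the 1052 summits lay in coding sequence (71.4%, 68.6 to 74.0%), against 81.9% of the other peaks and 70.1% of the genome's bases. Among peaks over 200 bp from a tRNA gene and outside retrotransposon sequence, the coding share was 89.3% of 841 shared peaks (87.0 to 91.2%) and 82.8% of 15666 other peaks (82.2 to 83.4%). The position of the coding share relative to the other peaks therefore changed sign with the tRNA genes left out.

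Space between genes held fewer shared than other peaks. Divergent intergenic regions, which contain promoters on both sides, held 16 shared peaks (1.52%, 0.938 to 2.46%), against 5.37% of the other peaks. Tandem intergenic regions held 33 (3.14%, 2.24 to 4.37%), against 8.14% of the other peaks, and convergent regions held 12 (1.14%, 0.654 to 1.98%), against 2.25%. The remaining shared peaks lay in other non-coding RNA genes (21 peaks, 2.00%, against 0.537% of the other peaks), in introns (5 peaks) and at chromosome ends (3 peaks). None of the 1052 fell in the class of Ty elements and LTRs, which allows a share of up to 0.364%. Of the other peaks 49 did, or 0.309%, which lies within that range, so the 2 shares cannot be told apart. Summits within 200 bp of a tRNA gene were counted with the tRNA genes, even where a Ty element or LTR lay there. No shared summit lay within 500 bp of a centromere (0 to 0.364%), against 20 other peaks (0.126%), which again lies within the range.

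The 500 bp upstream of a start codon held 148 shared peaks (14.1%, 12.1 to 16.3%), against 15.1% of the other peaks. tRNA genes accounted for much of this share. Of the 211 shared peaks near tRNA genes, 86 (40.8%) also lay upstream of a protein-coding gene, whereas of the 841 away from tRNA genes 62 did so (7.37%, 5.79 to 9.34%), against 14.8% (14.3 to 15.4%) of the other peaks away from tRNA genes. The 300 bp next to the start codon on the upstream side held 55 shared peaks, or 5.23%.

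**Figure D1:**
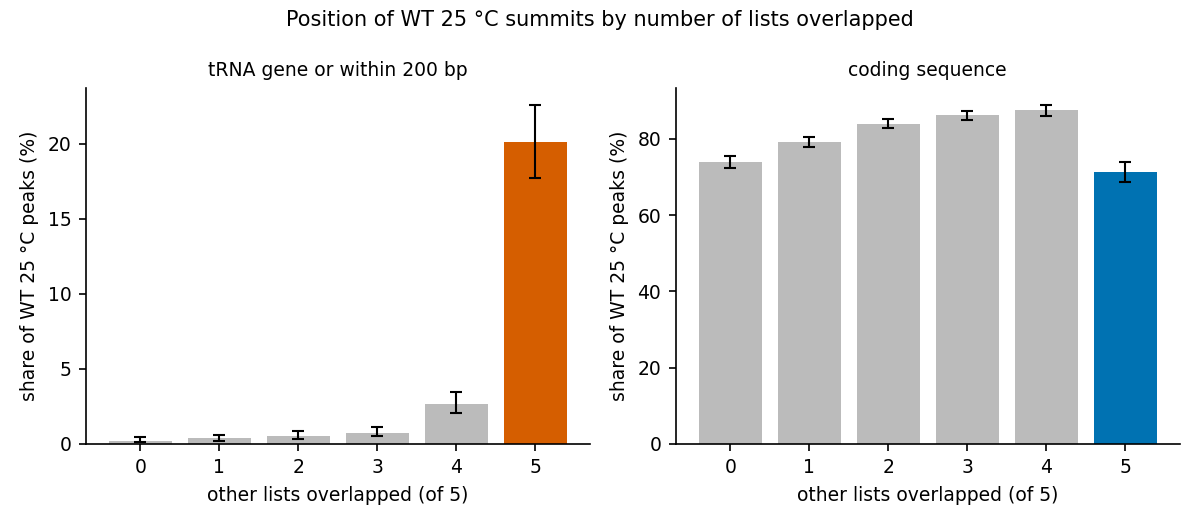
Share of WT 25 °C peaks (y axis, %) whose summit lies near a tRNA gene (left) or in coding sequence (right), by how many of the 5 other lists the peak overlapped (x axis). Coloured bars are the 1052 shared peaks and error bars are Wilson 95% intervals. The tRNA share was 20.1% among peaks that overlapped all 5 other lists and 2.68% among those that overlapped 4.

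The tRNA share was uneven over the number of lists overlapped. It was 0.211% of the 2849 peaks that overlapped no other list, 0.358%, 0.542% and 0.737% of those that overlapped 1, 2 and 3 lists, 2.68% (2.07 to 3.47%) of the 2088 that overlapped 4 lists and 20.1% of the shared peaks. The coding share was 74.0% with no other list, 87.5% with 4 lists and 71.4% with 5. The plot of position against lists overlapped shows the step at the last class for tRNA genes.

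Width was linked to sharing, since a wider interval has more room to overlap. The median width was 118 bp for shared peaks and 59.0 bp for other peaks, and the share of WT 25 °C peaks that were shared was 1.69%, 2.88%, 5.54% and 15.7% in the width classes of 48 bp, 49 to 62 bp, 63 to 95 bp and 96 to 844 bp. Within each of these classes, however, the tRNA share of shared peaks (15.7 to 28.9%) was above that of other peaks (0.573 to 1.36%). The median fold enrichment was 4.08 for shared peaks and 3.10 for other peaks.

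The rule has an edge at 1 bp. The thinnest of the 5 overlaps had a median of 40 bp and was at most 5 bp for 67 shared peaks, of which 19 rested on 1 bp. Those 67 had a median fold enrichment of 3.57 and a median width of 87.0 bp. Just outside the rule, 72 peaks missed a single list by less than 5 bp, and they had a median fold enrichment of 3.49 and a median width of 85.5 bp. The list most often the only one missing was WT 37 °C (669 peaks), followed by spt8Δ 25 °C (620 peaks).

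The lists differed in depth, which bears on every rank below. The number of peaks ranged from 16593 to 20179. The background under each peak was solved from the deposited fold enrichment and p-value. Its low end, taken as a low quantile and not as the minimum, was 36.3 reads in spt7 37 °C, 22.2 in spt7 25 °C, 28.8 in spt8Δ 37 °C, 7.99 in spt8Δ 25 °C, 5.98 in WT 37 °C and 10.8 in WT 25 °C. This value is called the background of a list below. Fold enrichment is a ratio over the local background of its own list, so strength was compared as a percentile among all peaks of a list, or as a rank from 0 to 100 among the 1052 shared peaks.

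Most nuclear tRNA genes had a shared peak. It lay within 200 bp of 196 of the 275 genes (71.3%, 65.7 to 76.3%), of which 175 had 1 shared peak in that range and 21 had 2. A peak within 200 bp of several tRNA genes counted for each of them. A WT 25 °C peak of any kind lay near 250 of the 275, a peak in all 6 lists (not necessarily overlapping) near 226, and 4 genes had no peak in any list. By amino acid, 10 of 10 tRNA-Gln genes, 9 of 10 tRNA-Phe genes and 18 of 21 tRNA-Gly genes had a shared peak, against 3 of 8 tRNA-Tyr genes and 7 of 15 tRNA-Ile genes. These groups are small, and their order was not tested.

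Summits gathered just before the tRNA gene. In WT at 25 °C, 153 of the 211 summits (72.5%, 66.1 to 78.1%) lay before the 5′ end, at a median of -15.0 bp (quartiles -19 and -11 bp), 18 lay in the gene and 40 after the 3′ end. Of the 120 other WT 25 °C peaks near tRNA genes, 47 lay before the 5′ end, 8 in the gene and 65 after the 3′ end. The last 20 bp before the gene held 182 of the 211 matched summits in spt7 37 °C (86.3%), 172 in spt7 25 °C (81.5%), 160 in spt8Δ 37 °C (75.8%), 142 in spt8Δ 25 °C (67.3%), 114 in WT 37 °C (54.0%) and 122 in WT 25 °C (57.8%). The 4 mutant lists had larger counts than both WT lists. Of the mutant lists, spt8Δ 25 °C had the fewest such summits and the lowest background (7.99 reads). That background lay between those of WT 37 °C (5.98 reads) and WT 25 °C (10.8 reads). The other mutant lists had higher backgrounds than both WT lists, and the largest counts. The part of depth in these counts was not tested.

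**Figure D2:**
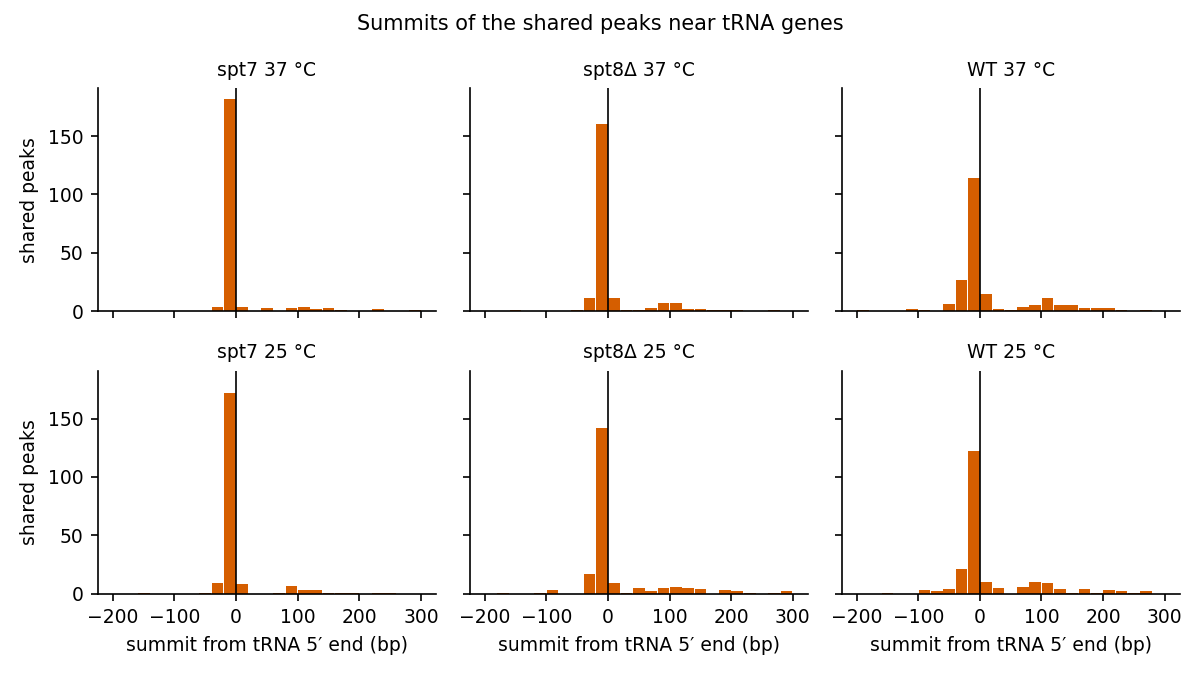
Number of shared peaks near tRNA genes (y axis) by the distance of the summit from the 5′ end of the tRNA gene (x axis, bp, bins of 20 bp, negative values upstream), in each list. The tallest bin in every list is the one just before the gene, with 182 summits in spt7 37 °C and 122 in WT 25 °C.

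The tRNA sites were also placed more exactly from list to list than the other shared peaks. The median distance of a matched summit from the WT 25 °C summit was 7 to 10 bp near tRNA genes, against 41 to 48 bp away from them. All 5 other summits lay within 25 bp of the WT 25 °C summit for 117 of the 211 shared peaks near tRNA genes (55.5%), against 12 of the 841 away from them (1.43%). Outside the tRNA genes a shared peak was thus mostly an overlap of intervals and not of summits.

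Sites near tRNA genes ranked at the top of the lists. Their median percentile of fold enrichment among all peaks was 99.4 in spt7 37 °C, 99.3 in spt7 25 °C, 99.3 in spt8Δ 37 °C, 97.0 in spt8Δ 25 °C, 94.2 in WT 37 °C and 93.9 in WT 25 °C. Shared peaks in coding sequence had medians of 78.3, 75.2, 74.2, 70.5, 70.9 and 76.0 in the same order. Of the 80 shared peaks above the 90th percentile of all 6 lists, 71 were near tRNA genes and 6 were in coding sequence, while 217 shared peaks were below it in all 6, 197 of them in coding sequence.

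**Figure D3:**
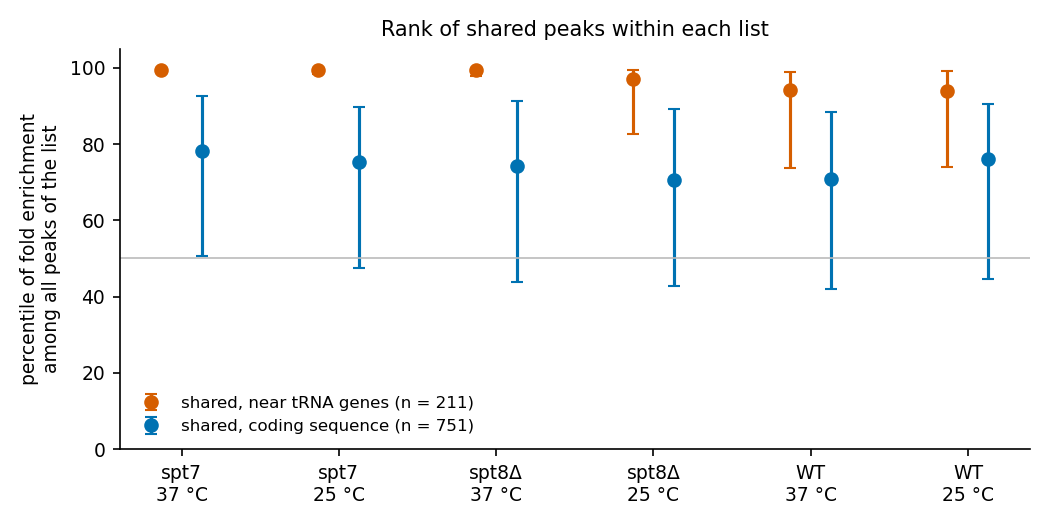
Percentile of fold enrichment among all peaks of a list (y axis) for shared peaks near tRNA genes (orange, 211 peaks) and in coding sequence (blue, 751 peaks), with the median as a point and the quartiles as bars. The tRNA medians lay between 93.9 and 99.4, above the coding medians of 70.5 to 78.3 in each list.

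The strongest shared peak lay 15 bp from the tRNA-Arg gene YNCJ0008W and is the first sequence printed above. Its fold enrichment was 13.7 in spt7 37 °C, 15.9 in spt7 25 °C, 10.7 in spt8Δ 37 °C, 12 in spt8Δ 25 °C, 13.6 in WT 37 °C and 13.3 in WT 25 °C, and its mean percentile was 99.9. The mutant and WT lists overlapped in these values. Other sites of the top group were those at the tRNA-Trp gene YNCK0010W (12.5, 14.6, 8.61, 11, 13.6 and 10.1 in the same order of lists) and the tRNA-Glu gene YNCD0021C (14.6, 7.71, 10.1, 12.2, 16.3 and 18.3). In all, 9 of the 10 shared peaks with the highest mean percentile were near tRNA genes, with tRNA-Ser (YNCG0025C), tRNA-Val (YNCB0011C), tRNA-Gln (YNCD0014C and YNCH0005W), tRNA-His (YNCE0021C) and initiator tRNA-Met (IMT1) among them. The weakest near a tRNA gene was at SUF8, a tRNA-Pro gene, with 2.44, 2.54, 1.25, 2.54, 2.62 and 2.05.

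The remaining member of that top group lay beside another RNA polymerase III gene. This peak, between PMD1 and GLC7, had fold enrichments of 16.1, 13.5, 8.78, 14.9, 9.32 and 17.2, and its summit lay 158 bp before the 5′ end of SNR52, a gene for a small nucleolar RNA. A second shared peak had its summit 22 bp inside SNR52, and in spt7 37 °C, spt7 25 °C and spt8Δ 37 °C it was matched to the same peak as its neighbour. Shared summits were also found 235 bp inside SCR1, which encodes the RNA of the signal recognition particle (17, 10.1, 6.76, 14.6, 9.01 and 10), 2 bp inside SNR6, the gene of U6 RNA (7.55, 13.1, 4.44, 4.65, 5.39 and 2.86), and inside RPR1, the gene of RNase P RNA (7, 5.23, 8.68, 8.08, 7.55 and 2.96). These genes were picked with their values in view. The 6 annotated genes for 5S RNA, which lie in or near repeated ribosomal DNA, had no shared peak.

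The other non-coding RNA genes with shared peaks were mostly templates of RNA polymerase II. LSR1, which encodes U2 RNA of the spliceosome, had 3 shared peaks, of which the strongest had fold enrichments of 6.36, 5.46, 6.13, 6.52, 15.8 and 4.65. The value of 15.8 in WT 37 °C was the highest of the 6, and a neighbouring shared peak in LSR1 was matched to that same peak. Genes for snoRNAs or spliceosomal RNAs with a shared peak included SNR128, SNR30, SNR17A, SNR19, SNR10 and SNR9. The antisense-type transcripts RME2 and RME3 and the locus YNCM0001W overlap protein-coding genes, and the lists carry no strand.

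The sequence around the summits was searched from 50 bp before to 50 bp after each. The A box core TGGCNNAGT, on either strand, was found in 25.1% of shared windows near tRNA genes, against 6.86% of all genome windows near tRNA genes and 0.935% of all genome windows. The B box core GGTTCNA was found in 12.3% of the shared windows near tRNA genes, against 16.7% of genome windows there. The A box lies at the 5′ side of a tRNA gene and the B box at its 3′ side, so these shares describe where the windows were centred. TATAAA was present in 4.85% of all shared windows (3.71 to 6.32%), against 7.34% of other peaks and 10.9% of genome windows, and runs of 7 A in 4.94% (3.79 to 6.42%), against 5.85% and 9.40%. The Hsf1 motif GAANNTTC was in 5.70% (4.46 to 7.27%), against 4.93% and 4.68%. The other motifs searched were AGGGG of Msn2 and Msn4 (5.51%, against 7.19% of other peaks and 6.47% of genome windows), CGGGTAA of Reb1 (3 shared windows) and ACCCANACA of Rap1 (2 shared windows). The median GC content was 40.6% in shared windows, 39.6% in other peaks and 38.6% in genome windows.

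The strengths of shared peaks ran in parallel across lists near tRNA genes and hardly elsewhere. Over the 15 pairs of lists, Spearman's rho of fold enrichment had a median of 0.51 (range 0.39 to 0.73) for the 211 shared peaks near tRNA genes, 0.13 (-0.03 to 0.27) for the 841 away from them and 0.34 (0.18 to 0.55) for all 1052. The points of a pair share the local sequence and its mappability, and some matched peaks served more than 1 shared peak (40 shared peaks in spt8Δ 25 °C up to 116 in spt7 37 °C). These values are descriptions with no test. At the summit, a 36 bp sequence that occurs more than once in the genome was found for 6 shared peaks (0.570%) and for 0.246% of the other peaks.

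Along genes, the shared peaks were sparse at the beginning of the coding region. In coding regions of at least 1000 bp, the first 10% of the length held 31 of 643 shared summits (4.82%, 3.42 to 6.76%), against 9.65% (9.11 to 10.2%) of 11034 other summits. The next 10% held 8.71% of the shared summits (6.77 to 11.1%) and 9.12% of the others, and the last 10% held 10.7% of each. Bins of 100 bp around the start codon were counted without the peaks near tRNA genes. The 86 shared summits that lay both near a tRNA gene and within 500 bp upstream of a start codon are thus not in these bins. The bin with the fewest shared summits was 200 to 100 bp upstream, with 5 (1.12% of the binned summits). It was also the lowest bin of the other peaks, with 363 (3.68%). The bin with the most shared summits was 800 to 900 bp downstream, with 56 (12.5%), against 614 other summits (6.22%). The most other summits lay 100 to 200 bp downstream, with 885 (8.97%), against 32 shared (7.16%).

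**Figure D4:**
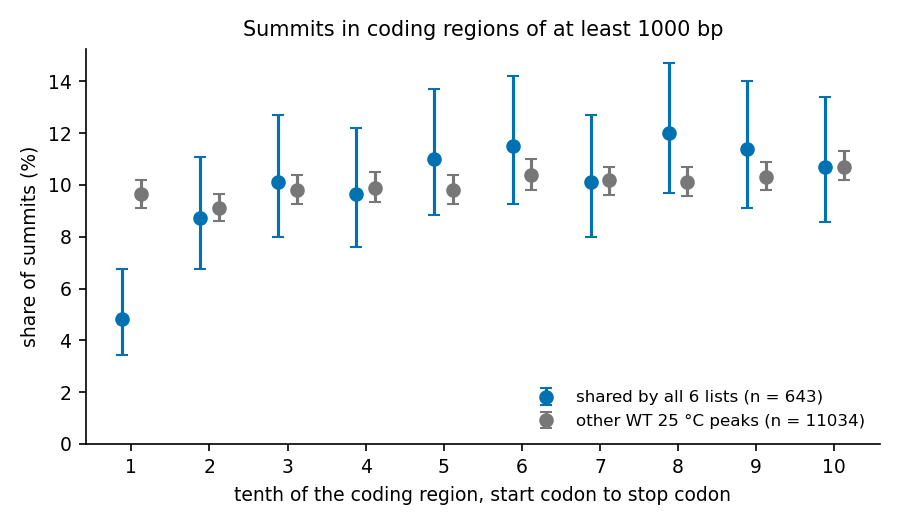
Share of summits (y axis, %) in each 10% of the length of coding regions of at least 1000 bp, from the start codon to the stop codon (x axis), for shared peaks (blue, 643 summits) and other WT 25 °C peaks (grey, 11034 summits). Error bars are Wilson 95% intervals, and the first 10% held 4.82% of the shared and 9.65% of the other summits.

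Genes with shared peaks were a minority. Of 6002 nuclear protein-coding genes, 746 (12.4%, 11.6 to 13.3%) had a shared summit in the coding region (here from start to stop codon, introns included) or the 500 bp upstream, and 591 had one in the coding region. In the coding region, 484 genes had 1 shared peak, 70 had 2 and 37 had 3 or more. Shared summits amounted to 0.0872 per kb of coding region over all genes, and 5.52% of WT 25 °C summits in coding regions were shared.

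Glycolytic and chaperone genes had shared peaks more often than genes did in general. Of 21 glycolytic and fermentation genes, 10 had a shared peak (47.6%, 28.3 to 67.6%), at 0.819 per kb, and 38.5% of their WT 25 °C peaks were shared. Of 28 chaperone and heat-shock genes, 12 did (42.9%, 26.5 to 60.9%), at 0.552 per kb, and 28.7% of their peaks were shared. Of 137 ribosomal protein genes, 42 did (30.7%, 23.6 to 38.8%), at 0.721 per kb, and 19% of their peaks were shared. All of these shared summits lay between the start and stop codons, introns included, and none in the 500 bp upstream, where 173 of all 6002 genes (2.88%) had one. Of 29 translation factor genes 7 had a shared peak, of 39 amino acid synthesis genes 4, of 25 SAGA and TREX-2 subunit genes 3 and of 10 histone genes 1. The lists are small, and the shares are set only beside the 12.4% of all genes.

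PDR5, a pump that exports drugs from the cell, had the most shared peaks of any gene. It held 14 of its 17 WT 25 °C summits as shared peaks, at 3.09 per kb of its coding length of 4536 bp (chr15:619840-624375), and the fold enrichments ran between 1.63 and 9.03 over the lists. Its 14 shared peaks fell on 7 distinct peaks in spt7 37 °C, on 14 in spt7 25 °C, on 10 in spt8Δ 37 °C, on 11 in spt8Δ 25 °C and on 13 in WT 37 °C, so that in 4 of the 5 other lists a peak served several of them. PDC1, pyruvate decarboxylase, had 6 shared of 7 peaks, at 3.55 per kb, the highest density among genes with 3 or more. All 6 were matched to a single spt7 37 °C peak with a fold enrichment of 5.42.

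Other genes had most or all of their peaks shared. In PGK1, phosphoglycerate kinase, 4 of 4 were shared (3.20 per kb), and the strongest had fold enrichments of 7.65, 7.67, 6.07, 5.78, 9.32 and 10.1. HSC82 and HSP82 encode the constitutive and the inducible Hsp90 and had 6 of 6 and 5 of 5 shared, and the 36 bp sequences at these summits occurred once in the genome although the genes are close relatives. PMA1, the plasma membrane proton pump, had 5 of 9 and CIT2, the peroxisomal citrate synthase, 4 of 6. In CDC19, pyruvate kinase, 3 of 5 were shared, in FBA1, aldolase, 3 of 5 and in TDH3, glyceraldehyde-3-phosphate dehydrogenase, 3 of 5.

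Single shared peaks marked many ribosomal protein genes. RPL3 had 3 of 3, RPL10 and RPL28 2 of 3 each and RPL6A 2 of 2, and the other 38 genes had 1. The strongest in RPL19A had fold enrichments of 3.22, 6.12, 3.99, 6.56, 8.89 and 6.11, and the strongest in RPL3 had 5.48, 6.63, 5.70, 4.64, 7.05 and 7.30. The strongest in RPL6A had 3.46, 4.52, 4.49, 7.45, 6.02 and 8.07. In all 3 the highest value was in a WT list. Many of these genes have a close paralog, and how reads that fit both copies were placed is not given in the sources used here. Of the 5 shared peaks in introns, 4 were in ribosomal protein genes (RPL28, RPL33A, RPL42A and RPL7A) and 1 in YRA1, an mRNA export factor. The shared summit of RPL7B lay in SNR59, a snoRNA gene within it.

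The highest-ranked coding peaks outside these families included GCN4 and ADE16. GCN4, the activator of amino acid synthesis genes, had fold enrichments of 6.47, 4.74, 6, 9.56, 7.43 and 5.13, with the values of the mutant and WT lists interleaved. Its peak was 844 bp wide, and the summit lay 342 bp from the tRNA-Arg gene YNCE0010W, beyond the 200 bp limit. ADE16, an enzyme of purine synthesis, had 5.45, 6.59, 4.36, 5.34, 6.02 and 6.62, a narrow range. SSA1, an Hsp70 chaperone, had its shared peak 1783 bp from the start codon, near the end of the gene, with 10, 4.22, 9.08, 7.78, 12.8 and 4.81. That summit lay 394 bp from the tRNA-Pro gene TRN1. Each strain had its higher SSA1 value at 37 °C.

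Genes of the complexes themselves, and the genes altered in the strains, were also looked up. TRA1, the scaffold of SAGA, had 4 shared of 27 peaks, SPT7 1 of 9 (2.98, 3.53, 3.35, 4.56, 5.16 and 2.55) and TAF5 1 of 5. No shared peak lay in or upstream of SUS1, SPT8, HIS3, LEU2 or URA3. LEU2 and URA3 are deleted in all the strains and SPT8 in spt8Δ, so no shared peak could lie in those coding regions. SUS1, SPT8, LEU2 and URA3 had no WT 25 °C peak of any kind in their coding regions, and HIS3 had 2. MET17, which is also named MET15 and is deleted in the strains, had no WT 25 °C peak in its coding region and 1 shared peak upstream, which belonged to the tRNA-Leu gene YNCL0037W. Of the genes that the study names or has primers for, CDC19 had 3 shared peaks, ACT1 2, and SPB1 and TPI1 1 each, while NUG1, RPS26A, RPL11A, RPL11B, BRL1 and ARG1 had none.

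A minority of shared peaks differed with temperature in the same direction in all strains. The rank among shared peaks was higher at 37 °C than at 25 °C in all 3 strains for 143 peaks (13.6%) and lower in all 3 for 117 (11.1%). For peaks near tRNA genes the counts were 36 of 211 (17.1%) and 19 (9%), and for coding peaks 94 of 751 (12.5%) and 88 (11.7%). Some peaks would move alike in all 3 strains without any effect of heat, and no share for this was computed. The 37 °C list was deeper than the 25 °C list in spt7 and in spt8Δ and shallower in WT, and the part of depth was not tested.

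The listed chaperone genes stood on the rising side. Of their 25 shared peaks 12 (48%) had a higher rank at 37 °C in all 3 strains, against 13.6% of all shared peaks, and 1 (4%) had a lower one. The 12 lay in 6 of the 12 genes, namely HSC82 (5 peaks), HSP82 (2), KAR2 (2), SSA1, SSA2 and SSC1 (1 each), and the peaks of a gene are not independent, since neighbours were partly matched to the same peak. The median rank difference was 5.04 in spt7, 7.22 in spt8Δ and 32.2 in WT. The WT 25 °C value was that of the shared peak itself, whereas in every other list the strongest overlapping peak was taken. The size of the WT difference is therefore not comparable with those of the mutants. None of the other 6 genes (HSP30, HSP60, HSP78, SIS1, STI1 and YDJ1) had a peak with a higher rank at 37 °C in all 3 strains. ECM10, a mitochondrial Hsp70 relative, was not in the gene list, and its shared peak had the largest fall with heat of all (described below).

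Among those chaperone genes, HSP82 and KAR2 had 2 of the 5 largest rises of any shared peak. A peak 302 bp into HSP82 had fold enrichments of 5.15 at 37 °C and 2.89 at 25 °C in spt7, 12.3 and 4.23 in spt8Δ, and 5.37 and 2.29 in WT. All 5 shared peaks of HSP82 were matched in spt8Δ 37 °C to that 1 peak of 12.3. A peak 1954 bp into KAR2, the Hsp70 of the endoplasmic reticulum, had 5.24 at 37 °C and 2.74 at 25 °C in spt7, 5.55 and 3.20 in spt8Δ, and 4.77 and 2.97 in WT. SSA2, another Hsp70, had 7.67 and 3.29 in spt7, 7.08 and 7.25 in spt8Δ, and 8.06 and 3.79 in WT. In spt8Δ the SSA2 ratio was thus slightly lower at 37 °C although its rank was higher.

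The remaining large rises were at SNQ2, a drug pump (4.69 at 37 °C and 1.48 at 25 °C in spt7, 3.32 and 1.74 in spt8Δ, 4.34 and 2.11 in WT), and at the tRNA genes YNCK0018C (tRNA-Asp) and YNCG0036W (tRNA-Ala). Glycolytic genes had 6 of 25 peaks (24.0%) higher at 37 °C in all 3 strains and 1 (4%) lower. Ribosomal protein genes had 4 of 47 (8.51%) higher and 10 (21.3%) lower, against 11.1% of all shared peaks. The 10 lay in 10 genes, among them RPL33B, with fold enrichments of 2.44 and 6.16 in spt7, 2.65 and 10.2 in spt8Δ, and 6.74 and 8.58 in WT.

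The 5 largest falls with heat were of mixed kinds. The largest was in ECM10, a mitochondrial Hsp70 relative, with 1.36 at 37 °C and 4.36 at 25 °C in spt7, 1.97 and 4.15 in spt8Δ, and 2.72 and 5.93 in WT. The others were at the tRNA-Glu gene YNCL0044W, in YDR341C, which encodes an arginyl-tRNA synthetase, in TRZ1, an endonuclease that trims tRNA precursors, and between DPB11 and SIP4. The SIP4 site lay 114 bp before the start codon and had 2.76 and 4.57 in spt7, 2.21 and 3.89 in spt8Δ, and 2.01 and 7.47 in WT.

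Between strains, sites near tRNA genes ranked higher in the mutants. The rank was higher in all 4 mutant lists than in both WT lists for 109 shared peaks (10.4%) and lower in all 4 for 96 (9.13%). Near tRNA genes 51 of 211 (24.2%) were higher and 6 (2.84%) lower, against 49 of 751 (6.52%) higher and 83 (11.1%) lower in coding sequence. The median rank among shared peaks of the tRNA sites was 89.6, 89.5, 88.5 and 81.7 in the mutant lists and 76.0 and 76.6 in the WT lists. The spt8Δ 25 °C list, with the lowest of the 4 mutant ranks, had a background (7.99 reads) between those of WT 37 °C (5.98 reads) and WT 25 °C (10.8 reads). The 3 other mutant lists were deeper than both WT lists. The part of depth in this difference was not tested. Nor was a share computed for peaks that would meet this criterion without an effect of strain.

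Of the 5 largest differences in favour of the mutants, 4 were at tRNA genes. The site at the tRNA-Lys gene YNCE0022C had fold enrichments of 10.1, 9.95, 8.75 and 8.01 in the mutant lists and 3.87 and 3.14 in the WT lists. The tRNA-Ser gene YNCD0028W had 7.27, 6.63, 5.11 and 4.23, against 3.22 and 2.36 in WT. At these sites every mutant value was above every WT value. The largest difference, in CIT2, was 6.39, 3.30, 5.70 and 7.23 in the mutants and 1.48 and 2.25 in WT. The 3 other shared peaks of CIT2 did not meet this criterion.

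The 5 largest differences in favour of WT were all in coding regions. RRN3, an initiation factor of RNA polymerase I, had 3.19, 1.97, 2.21 and 2.98 in the mutant lists and 7.60 and 7.06 in the WT lists. YIF1, a protein of vesicle transport, had 2.50, 2.63, 3.62 and 2.78, against 9.61 and 7.39 in WT. The others were SPT23, a membrane-bound transcription factor, FAS2, a subunit of fatty acid synthase, and DGR2. The mutant and WT values did not overlap at any of the 5, which is how they were chosen. With 2 WT lists that differ in depth from most mutant lists, strain and list cannot be told apart.

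A few shared peaks had very high ratios in a single list. In spt8Δ 25 °C, 6 shared peaks exceeded 39.6, the highest fold enrichment of any peak in the 5 other lists, and 11 peaks of that list did so in all. They lay between YHR210C and FLO5 (946), upstream of HXT3 (832), MIG2 (332), MAL31 (249) and HXT8 (237), and between IMA1 and MAL13 (54.7), and they were picked with these values in view. HXT3 and HXT8 encode members of the hexose transporter family, MIG2 a repressor of genes that glucose switches off, and MAL31, MAL13 and IMA1 belong to maltose or isomaltose use.

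Their values in the other lists were uneven. YHR210C/FLO5 had 6.47 and 2.41 in spt7 at 37 °C and 25 °C, 5.05 in spt8Δ 37 °C, and 35.9 and 24.6 in WT 37 °C and 25 °C. HXT3 had 5.82, 7.02 and 7.27 in those mutant lists, and 39.6 and 20.2 in WT, and MIG2 had 2.73, 2.32 and 3.80, and 13.4 and 6.61 in WT. These 3 sites were thus also high in WT, at percentiles of 98.4 or above. MAL31 had 2.47, 2.54 and 2.68 in the mutant lists other than spt8Δ 25 °C, and 4.01 and 2.16 in WT, so that its WT 25 °C percentile was 10.8. HXT8 had 2.11, 2.73 and 3.28, and 7.82 and 11.4 in WT, so it too was high in WT, at percentiles of 97.9 and 99.9. IMA1/MAL13 had 3.41, 3.36 and 2.95, and 4.13 and 6.37 in WT, at WT percentiles of 66.6 and 98.0. The MAL31 peak of spt8Δ 25 °C had its summit outside the WT 25 °C interval, at position 805033 of chromosome 2.

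**Figure D5:**
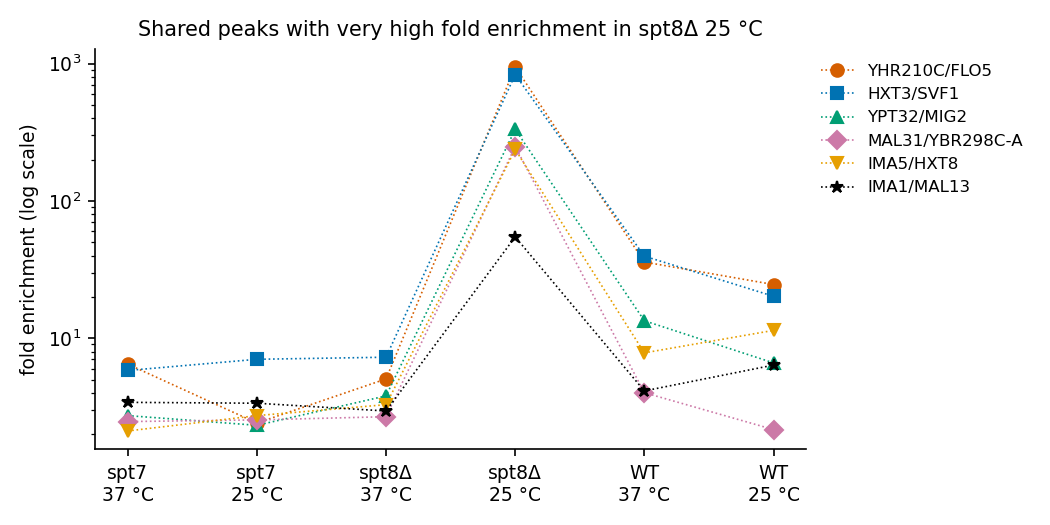
Fold enrichment (y axis, log scale) in each of the 6 lists (x axis) of the 6 shared peaks whose ratio in spt8Δ 25 °C was above 39.6. Each line joins the values of 1 peak, and the spt8Δ 25 °C values run from 54.7 to 946.

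The windows around the spt8Δ 25 °C summits of these peaks are shown because they held a common motif. Capitals mark CGGANNA on either strand, the motif of Rgt1, a repressor of hexose transporter genes. It was found in 6 of 6 windows, with 11 matches, against 9.75% of all genome windows and 8.75% of shared windows around WT 25 °C summits. Of the 2 other motifs searched, TGGGG was in 1 of 6 windows, against 8.63% of genome windows, and CGGGG in 2 of 6, against 3.08%. The motifs were searched after the genes were seen, so that this count is a description. Coordinates are those of the window on the plus strand of sacCer3.
YHR210C/FLO5 (chr8:521941-522041): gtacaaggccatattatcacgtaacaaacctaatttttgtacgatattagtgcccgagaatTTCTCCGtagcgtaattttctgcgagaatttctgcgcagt
HXT3/SVF1 (chr4:1164969-1165069): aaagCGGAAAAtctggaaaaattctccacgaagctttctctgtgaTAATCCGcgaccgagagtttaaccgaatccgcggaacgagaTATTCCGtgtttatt
YPT32/MIG2 (chr7:95466-95566): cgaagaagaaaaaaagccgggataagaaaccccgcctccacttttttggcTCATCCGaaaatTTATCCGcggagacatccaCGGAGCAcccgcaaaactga
MAL31/YBR298C-A (chr2:804983-805083): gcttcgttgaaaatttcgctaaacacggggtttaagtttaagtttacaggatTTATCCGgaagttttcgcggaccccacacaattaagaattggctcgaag
IMA5/HXT8 (chr10:26558-26658): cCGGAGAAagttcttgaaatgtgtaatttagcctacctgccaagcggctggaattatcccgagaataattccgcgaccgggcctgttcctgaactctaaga
IMA1/MAL13 (chr7:1069476-1069576): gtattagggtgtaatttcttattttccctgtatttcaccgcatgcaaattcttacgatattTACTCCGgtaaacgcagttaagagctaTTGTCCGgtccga

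The intergenic shared peaks included further sites with uneven strength. The GT repeat between VPS55 and SSC1 had 3.97, 3.19, 4.76, 16, 31.7 and 9, with the highest values in the 3 shallowest lists. CIS1/KAP95 had 3.62, 2.60, 2.08, 18.9, 15.5 and 6.47, with the same 3 lists highest. The 36 bp sequence at the CIS1/KAP95 summit occurs 15 times in the genome. In contrast, the site beside SNR52 was high throughout. Of the 62 shared peaks upstream of a gene and away from tRNA genes, 8 had a higher and 8 a lower rank at 37 °C in all 3 strains (12.9% each), near the 13.6% and 11.1% of all shared peaks.

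Over the chromosomes, the shared peaks ran from 4.78 per 100 kb on chromosome 1 to 12 on chromosome 7. The regions within 20 kb of a chromosome end held 24 shared peaks (2.28%, 1.54 to 3.37%), against 3.35% of the other peaks. Annotated origins of replication held 11 (1.05%, 0.585 to 1.86%), against 0.461%. The median gap between neighbouring shared peaks was 5487 bp, 102 neighbouring pairs were within 200 bp, and all shared peaks together covered 141494 bp, or 1.17% of the nuclear genome.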

How the data were processed

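Peak lists were taken as deposited, 1 for each of the 6 strain and temperature conditions. Of the 22 labelled samples, 18 are tagged (3 per condition); the 4 untagged ones were not analysed here. The authors mapped reads to sacCer3 with BWA (the submitters' processing notes name BWA 0.6.2 and CASAVA 1.7). Which caller and control were used, and whether replicates were pooled, is not given in the sources used here; the layout is that of MACS2. Per the deposited lists, each peak has a fold enrichment (a ratio to local background, at the summit), a −log10 p-value and a −log10 q-value, together with its interval and summit offset. The lowest −log10 q was 1.30. The authors' score column was not used.

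The members and gene lists were chosen with earlier results of these data known. Intervals were intersected in Python 3.11.15 with numpy 2.4.6 and pandas 2.3.3, and the summit was used as the position against the RefSeq annotation of R64. Where a shared peak overlapped several peaks of a list, the strongest was used. Classes were exclusive, in the order tRNA gene or within 200 bp, Ty element or LTR, other non-coding RNA gene, coding sequence, intron and intergenic. Height and background were solved from fold enrichment and p-value under a Poisson model with a pseudocount of 1. Shares carry Wilson 95% intervals (scipy 1.17.1). With 1 list per condition no test was made. The scripts were tested on simulated data. Genes and peaks named were the 10 strongest by mean percentile (also away from tRNA genes), the 5 largest rises and falls with heat and with strain, the 5 genes with the most shared summits and the most per kb, and the 3 strongest of each gene list, plus all genes of the strain-marker list and the list of genes named in the study. Others named for their values were chosen after those values were seen.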

Additional observations from a re-analysis of the deposited data

How the results depend on the processing

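Stricter definitions left fewer shared peaks and a larger tRNA share. The number of shared peaks (1052) was 645 with q under 1e-05 in every list, 170 with the 5000 strongest peaks of each list, 64 with a reciprocal overlap of 50% and 350 where the summit of the other list had to lie within the WT 25 °C interval. Under these 4 settings, in that order, the tRNA share (20.1%) was 29.1%, 72.4%, 67.2% and 46.0%, the coding share (71.4%) 62.6%, 20.6%, 25.0% and 45.7%, the upstream share (14.1%) 16.6%, 28.8%, 28.1% and 24.9%, and the median width (118 bp) 123, 129, 107 and 145 bp. Regions merged over all 6 lists that held a peak of each numbered 2175. With equal numbers of peaks per list the number was 906 and the tRNA share 22.5%. With each other list as anchor, run for the number alone, it was 1007 to 1258. With the peak midpoint as position, run for the 3 shares alone, the coding share was 71.5% and the upstream share 14.0%.

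The choice of region mattered for single shares. Away from tRNA genes and Ty/LTR sequence the coding share was 89.3% and the upstream share 7.37%. The upstream share was 5.23% within 300 bp and 33.2% within 1000 bp, and the tRNA share was 1.71% in gene bodies only.

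Leaving out spt8Δ 25 °C or WT 37 °C, the lists with the lowest backgrounds, gave 1672 or 1721 shared peaks. Leaving out a list was chosen for the shares after seeing the data. The tRNA share was then 17.2% without spt7 37 °C, 15.7% without spt7 25 °C, 15.8% without spt8Δ 37 °C, 13.8% without spt8Δ 25 °C and 13.9% without WT 37 °C. The coding share was 75.7% without spt7 25 °C, 75.1% without spt8Δ 37 °C, 77.0% without spt8Δ 25 °C and 77.7% without WT 37 °C. The median width was 106 bp without spt7 25 °C, 102 bp without spt8Δ 25 °C and 102 bp without WT 37 °C.

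Ranking by −log10 q, or matching the peak with the nearest summit, which for the counts was chosen after seeing the data, kept the 4 counts of rank moves within 1.5 times and the median rho within 0.31 to 0.37. No paired analysis was possible because each list covers a condition and carries no replicate number.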
